A study of Arabidopsis thaliana with 15 samples.

Results

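Arabidopsis plants that express a microRNA against the homeobox genes STM and BP in the ap1-1 mutant (genotype label pAP1>>miR STM/BP ap1-1, 2 libraries) were compared with ap1-1 itself (3 libraries), across all genes. These 5 libraries were chosen by their genotype labels from the 15 samples of the series. All are RNA-seq libraries of tissue labelled inflorescence meristem, from plants of the Ler background grown at 21 °C for 6 weeks and left unsprayed. Both groups carry ap1-1, so the mutation is shared and the microRNA is what the labels set apart. The series' design text names another allele, ap1-4, and the genotype given for each sample is followed here. The unsprayed wild type (2 libraries, Ler) is given beside the values without a test. A separate experiment in the series, 35S::STM-GR in Ler, was used for side-by-side values: 3 libraries sprayed with 10 µM dexamethasone (DEX) and 3 mock-sprayed, both with 0.02% Silwet, collected 5 h later. A further 2 wild-type libraries, sprayed with DEX in the same way, are cited for RVE2 and DFR. The labels do not say whether the replicates came from separate plants or how many plants were pooled. Nor do they give the number of insertion lines in the microRNA group. The p-values therefore measure a spread between libraries, which may be technical. That spread was estimated over all 15 libraries of the series and not over these 5 alone.

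STM (SHOOT MERISTEMLESS) and BP (BREVIPEDICELLUS, listed in the files as KNAT1) are class I KNOX transcription factors. They keep cells of the shoot meristem undifferentiated, work as dimers with BELL homeobox proteins, and are known to favour cytokinin and limit gibberellin in the meristem. AP1 is a MADS-box factor of the young floral meristem and of sepals and petals, and pAP1 names its promoter. The sign >> is the usual notation for a pair of transgenes in which a promoter drives a synthetic activator and the activator drives the product. STM-GR is STM fused to the hormone-binding part of the glucocorticoid receptor, which lets DEX bring the protein into the nucleus, and the 35S promoter is active in most tissues.

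The coding sequences of STM and KNAT1 share short near-identical stretches, which are shown because a microRNA that pairs with both genes needs such a stretch. The windows below are 21 bases long, lie inside a single coding exon, read 5′ to 3′ on the coding strand of assembly TAIR10.1, and carry in capitals each base that differs from STM. The STM window is at chr1:23061330-23061350 on the minus strand and covers coding bases 373 to 393 of 1149. The KNAT1 window is at chr4:5150179-5150199 on the minus strand, and its 1 difference makes it 1 of 13 equally close pairs of windows between these genes. The pair shown is the first of the 13 along STM. The others lie in STM coding bases 541 to 566 (6 windows) and 991 to 1016 (6 windows). For KNAT2 (chr1:26576851-26576871, plus strand) and KNAT6 (chr1:8302397-8302417, minus strand), the closest window of each gene to the STM window shown is printed. Each differs from it at 8 bases. KNAT2 and KNAT6 were not compared with the other windows. Which window the microRNA pairs with is not given in the sources used here.
STM: atcatggctcatcctcactac
KNAT1: atcatTgctcatcctcactac
KNAT2: atcGCTTctcatcctTTGtaT
KNAT6: CtcatgTTtcCtTcCGaTtac

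STM transcript was lower in the microRNA line, and BP transcript was not called. STM stood at 31.9 and 31.1 CPM (counts scaled to a common library size) in the microRNA line and at 50.4, 44.1 and 49.3 CPM in ap1-1, with 46.2 and 47.4 CPM in wild type. Both microRNA libraries lay below every ap1-1 library, with a log2 fold change of -0.61 ± 0.08 (SE) and an adjusted p of 0.000149 (edgeR, adjusted by Benjamini-Hochberg over all genes tested). Of those genes, 38.9% had no overlap between the libraries of the compared groups, 17.2% with the microRNA line higher and 21.7% with it lower. KNAT1 stood at 39.8 and 41.4 CPM against 64.5, 41.3 and 55.0 CPM in ap1-1. The groups overlapped through ap1-1 replicate 2, and the log2 fold change of -0.41 ± 0.14 had an adjusted p of 0.0701 in edgeR's test. KNAT1 passed the threshold of 0.05 with DESeq2 and without ap1-1 replicate 2. A microRNA can also block translation, and these libraries measure neither protein nor the AP1 domain alone.

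The other class I genes differed less. KNAT2 stood at 16.5 and 16.2 CPM against 13.5, 15.6 and 15.4 CPM in ap1-1 (log2 fold change 0.14 ± 0.12, edgeR adjusted p = 0.474), and KNAT6 at 20.9 and 23.3 CPM against 22.3, 21.1 and 21.4 CPM. Among the class II genes and KNATM, 2 of 5 tested were lower, where 11.4% of all genes tested were, KNATM at -1.12 ± 0.22 and KNAT7 at -0.69 ± 0.20 on the log2 scale. KNATM lost its call without microRNA line replicate 1, and KNAT7 kept its call under 4 of the 11 alternative ways of processing. The count of 2 became 0 without microRNA line replicate 1 and 1 without microRNA line replicate 2, ap1-1 replicate 1 or ap1-1 replicate 3.

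AP1 itself, whose promoter drives the microRNA, was higher. It stood at 122 and 125 CPM in the microRNA line and at 90.2, 86.3 and 88.3 CPM in ap1-1, with 193 and 213 CPM in wild type. Both microRNA libraries lay between the ap1-1 and the wild-type libraries, and the log2 fold change over ap1-1 was 0.49 ± 0.07 (adjusted p = 0.000182, edgeR). LFY, which specifies floral fate, stood at 7.72 and 7.75 CPM against 8.35, 6.72 and 5.83 CPM, and UFO, the F-box partner of LFY, was under 1 CPM in all 5 libraries. Neither was called. WUS, which marks the organising centre beneath the stem cells, stood at 14.6 and 13.5 CPM against 25.9, 25.6 and 29.7 CPM in ap1-1, and fell by 0.95 ± 0.12 on the log2 scale (adjusted p = 6.79e-05, edgeR). The wild-type libraries, at 30.9 and 37.8 CPM, were higher still. CLV3, the stem cell peptide gene, had 0 to 2 counts in each of the 15 libraries and was not tested, so this defining gene of the labelled tissue was at or near 0 throughout, while STM, WUS, LFY and AP1 were detected.

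**Figure D1:**
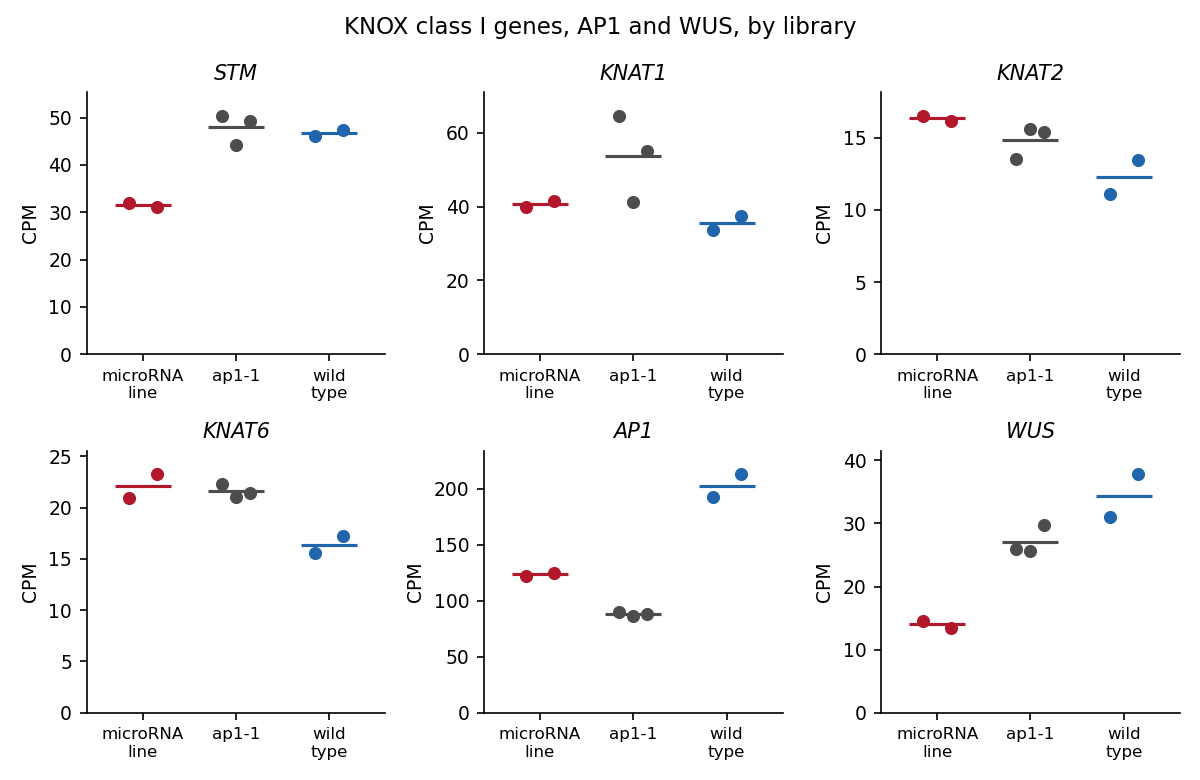
CPM (vertical axis, from 0) of STM, KNAT1, KNAT2, KNAT6, AP1 and WUS in each library of the microRNA line, ap1-1 and wild type. Points are libraries and bars are group means. STM and WUS are lower in both microRNA libraries than in every ap1-1 library, AP1 is higher, and KNAT1 overlaps through ap1-1 replicate 2 at 41.3 CPM.

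Across the transcriptome the losses were more frequent and larger than the gains. Of 21716 genes tested, 1057 (4.87%) were higher and 2475 (11.4%) were lower in the microRNA line at an edgeR adjusted p under 0.05. The counts of each list below are read against these shares. The median log2 fold change was 0.44 among the genes that rose and -1.1 among those that fell, against -0.000708 over all genes tested, beside which the list medians below are read. At least 2-fold differences were found for 118 genes that rose and 1332 that fell, and at least 16-fold differences for 3 that rose and 267 that fell, with genes at 0 reads in the microRNA line set at their bound. The microRNA line had no read in either library for 99 of the genes that fell. The counts rested on both microRNA libraries: without replicate 1 they were 455 higher and 1558 lower, and without replicate 2 they were 318 higher and 1332 lower.

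The 5 libraries held 18717248 to 26413106 reads counted in genes. The ap1-1 replicates were the least alike of any group, with a chi-square of 18.1 to 33.6 per gene between pairs, against 5.55 between the microRNA libraries. The main fit shares an estimate of spread per gene over all groups, so it can understate the spread within ap1-1. A fit of only these 5 libraries called 344 genes higher and 1603 lower, and a fit with a weight for each group called 647 higher and 1726 lower, in place of 1057 and 2475. Leaving out an ap1-1 library gave 1083 to 1296 higher and 2433 to 2756 lower. The number of alternatives was 11 for this comparison, and a range given after a count below spans them. Of 300 called genes followed through them, 137 kept their call in every alternative and none changed sign.

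**Figure D2:**
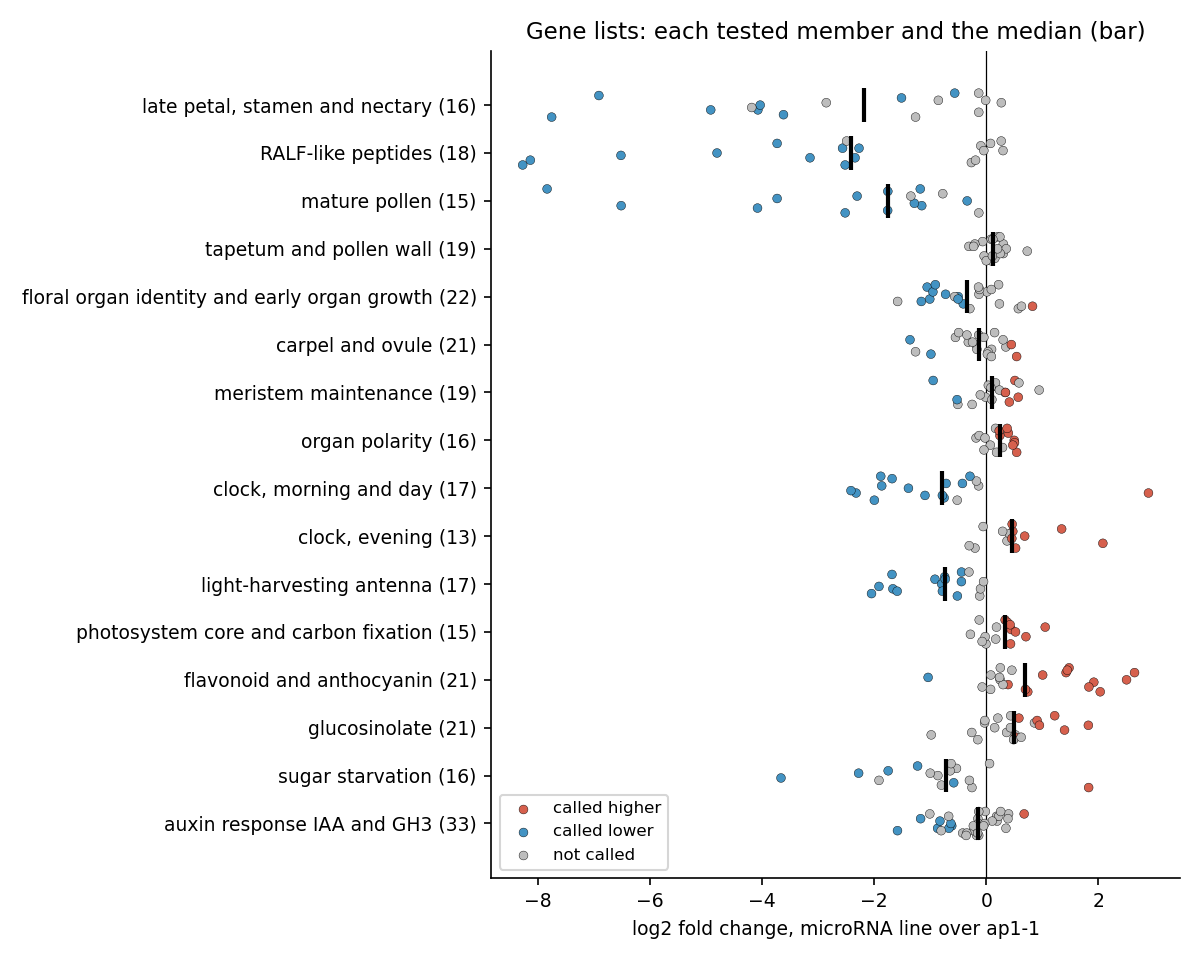
Log2 fold change (horizontal axis) of the microRNA line over ap1-1 for each tested member of 16 gene lists, with the number tested in parentheses. Points are genes, coloured by call, genes at 0 reads in the microRNA line are drawn at their bound, and the black bar is the list's median. Many pollen, RALF and late-flower genes lie far to the left, most morning clock and antenna genes lie left of 0, and evening clock, flavonoid and carbon fixation genes lie mostly right of 0.

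Genes of mature pollen and the pollen tube were much lower in the microRNA line. Of 15 tested, 12 fell and none rose (10 to 12 lower over the alternatives), with a median log2 fold change of -1.76. VGD1, a pectin methylesterase of the pollen tube wall, stood at 180 and 183 CPM against 647, 576 and 621 CPM in ap1-1, a log2 fold change of -1.76 ± 0.16 (adjusted p = 5.60e-06, edgeR). Its near-identical neighbour VGDH1 stood at 4.85 and 5.28 CPM against 116, 51.8 and 89.1 CPM (-4.08 ± 0.44), and reads of this pair may be split between the copies. In both genes the groups were far apart. ANX2, a receptor kinase that keeps the pollen tube intact, stood at 0.106 and 0.0484 CPM against 27.3, 11.3 and 16.7 CPM (adjusted p = 1.69e-05, edgeR). The calcium-dependent kinase CPK34 stood at 0.319 and 0.0484 CPM against 25.2, 9.32 and 15.2 CPM. These genes were almost silent in the microRNA line and well expressed in every ap1-1 library. AHA6, a plasma membrane proton pump of pollen, was reduced less, with 82.9 and 84.8 CPM against 202, 201 and 157 CPM (-1.15 ± 0.16). MYB101, a pollen tube transcription factor, stood at 11.6 and 12.4 CPM against 29.7, 26.9 and 24.4 CPM (-1.18 ± 0.15). The sperm genes DUO1 and HAP2 and the factor MYB97 were not called.

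RALF-like peptides, small secreted signals that include the pollen tube integrity peptides, fell in 10 of 18 tested and rose in none (9 to 11 lower over the alternatives). Their median log2 fold change was -2.42 with genes at 0 reads at their bound. RALFL4, which signals through the ANX receptors, stood at 4.90 and 6.01 CPM against 33.9, 23.6 and 36.4 CPM (-2.52 ± 0.24, adjusted p = 8.39e-06, edgeR). RALFL19, which acts with it, stood at 0.799 and 0.872 CPM against 12.8, 8.21 and 12.4 CPM (-3.73 ± 0.42). RALFL8 and RALFL9 fell by 2.57 ± 0.22 and 2.34 ± 0.20 on the log2 scale, RALFL9 from 108, 95.5 and 135 CPM to 21.9 and 22.6 CPM. RALFL25 had no read in either microRNA library and 8.76, 4.08 and 7.35 CPM in ap1-1, which is at least 91.7-fold lower, set against a floor of 3 reads over the group. RALFL22 and RALFL31 to RALFL34 were not called.

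Some regulators and enzymes of opening flowers were much lower as well, while others in their list were not called. In the list of late petal, stamen and nectary genes 8 of 16 fell and none rose (5 to 10 lower over the alternatives, with 5 when microRNA line replicate 2 was left out), with a median of -2.19 at the bound. MYB21, which acts downstream of jasmonate in petal and stamen growth, had 0.0532 and 0.0484 CPM against 15, 5.88 and 15.1 CPM in ap1-1 and 37.7 and 31.9 CPM in wild type (adjusted p = 2.12e-05, edgeR). MYB108, a stamen maturation factor, had 0.692 and 0.630 CPM against 10.5, 5.35 and 8.36 CPM (-3.62 ± 0.38). In both genes the microRNA libraries agreed closely and lay below ap1-1 replicate 2, the lowest of its group. The floral sesquiterpene synthase gene TPS21 stood at 0.319 and 0.339 CPM against 10.5, 4.71 and 15.1 CPM (-4.92 ± 0.74). BSMT1, which makes methyl benzoate and methyl salicylate, fell less, from 41.0, 34.6 and 53.0 CPM to 16.4 and 13.7 CPM (-1.51 ± 0.20). The auxin response factors ARF6 and ARF8, which act upstream of MYB21, were not called, with log2 fold changes of -0.01 ± 0.09 and -0.14 ± 0.08.

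Some sugar export and suberin genes were nearly silent in the microRNA line. SWEET13, a sucrose exporter, stood at 0.213 and 0.291 CPM against 8.39, 5.98 and 8.46 CPM (-4.89 ± 0.41, adjusted p = 3.77e-06, edgeR), and SWEET14 at 0.745 and 1.07 CPM against 20.1, 9.90 and 19.4 CPM (-4.18 ± 0.46). The SWEET list gave 6 lower of 14, but 2 when either microRNA library or ap1-1 replicate 3 was left out, and up to 9 with DESeq2. GPAT5, an acyltransferase of suberin synthesis, had a single read over both microRNA libraries and 34.6, 15.1 and 29.4 CPM in ap1-1 (adjusted p = 3.50e-06, edgeR). ABCG6, a suberin transporter, stood at 0.639 and 0.484 CPM against 10.3, 3.02 and 9.28 CPM (-3.76 ± 0.57). Of 9 suberin genes 3 fell and 1 rose: the riser, the fatty acid hydroxylase gene CYP86B1, stood at 9.96 and 12.9 CPM against 7.71, 6.56 and 7.55 CPM (0.65 ± 0.14), a call lost without microRNA line replicate 2. CYP76C3, a flower cytochrome P450 of linalool metabolism, had no read in the microRNA line and 11.2, 3.34 and 12.1 CPM in ap1-1, at least 120-fold lower. EXPB5, a beta-expansin, was at least 70.0-fold lower, GH9B11, an endoglucanase family member, at least 50.7-fold, and DELTA-VPE, a vacuolar processing enzyme gene, at least 48.9-fold, each with 0 reads in both microRNA libraries.

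Earlier anther genes did not follow this pattern. None of the 19 tested tapetum and pollen wall genes was called in either direction by edgeR or by DESeq2, while 6 had an unadjusted p under 0.05 and leaving out any ap1-1 library called 1. Their median log2 fold change was 0.116. ACOS5, a sporopollenin synthesis enzyme, stood at 193 and 191 CPM against 141, 185 and 142 CPM (0.30 ± 0.12), and the tapetum regulator AMS at 69.4 and 74.1 CPM against 109, 88.0 and 69.5 CPM (-0.31 ± 0.14). Abundant anther coat genes outside that list were lower: the anther gene ATA20 stood at 1588 and 1390 CPM against 2596, 2171 and 2087 CPM (-0.62 ± 0.11), and lost its call in the fit of these groups alone. GRP19, a pollen coat oleosin, fell by 0.82 ± 0.17, a call lost in that fit and without microRNA line replicate 2.

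The summed level of the pollen markers was 346 to 355 CPM in the microRNA line, 1090 to 1370 CPM in ap1-1 and 1180 to 1810 CPM in wild type, and 12 of 15 tested markers were lower. The late petal and nectary markers summed to 112 CPM in both microRNA libraries and to 132 to 192 CPM in ap1-1, and 4 of 7 tested were lower. MYB24 was at 0 reads in both groups and SWEET9 at 0 in the microRNA line. Seed and silique markers summed to 2.08 to 2.29 CPM against 5.39 to 6.99 CPM. Of these 12 markers, 7 were at 0 reads in the microRNA line and 4 in ap1-1. Only 3 had enough reads to be tested, of which 2 were lower, and FUS3, an embryo regulator, fell by 2.05 ± 0.30. The tapetum markers summed to 773 to 803 CPM against 691 to 917 CPM, and the inflorescence meristem markers to 267 to 277 CPM against 261 to 298 CPM, so these ranges overlapped. The meristem sum joins opposite changes: of 6 tested markers 1 was higher (AP1) and 2 were lower (STM and WUS). The part that the stage and number of flowers in each sample had in these results was not tested. In bulk tissue, fewer cells of a type and less RNA per cell cannot be told apart.

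**Figure D3:**
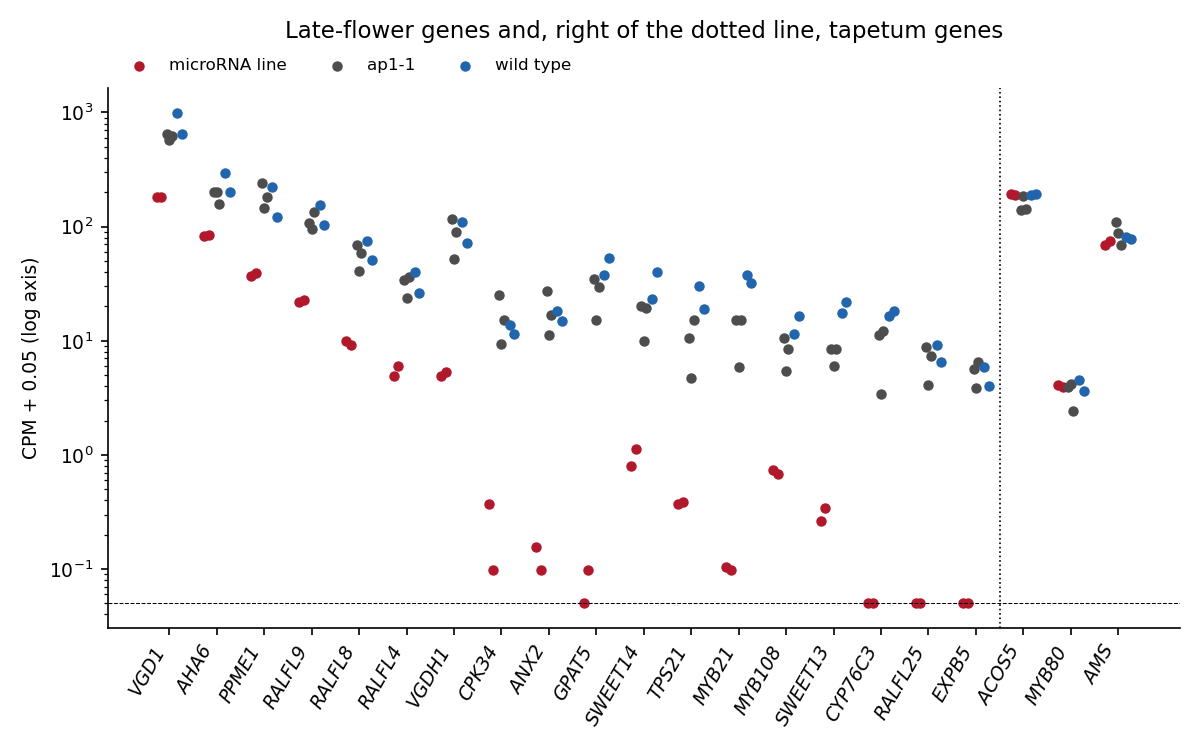
CPM plus 0.05 (vertical axis, log scale) of 18 genes of late flower parts and, right of the dotted line, 3 tapetum genes, in each library of the microRNA line, ap1-1 and wild type. Points are libraries and the dashed line marks 0 reads. The microRNA libraries lie below all ap1-1 and wild-type libraries for the 18 genes and among them for MYB80.

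Several floral organ identity genes of the inner whorls were moderately lower. Of 22 organ identity and early organ growth genes, 9 fell and 1 rose (6 to 11 lower over the alternatives), with a median log2 fold change of -0.353. AG, the MADS-box gene that specifies stamens and carpels and ends the floral meristem, stood at 79.7 and 84.2 CPM against 150, 120 and 137 CPM (-0.73 ± 0.10, adjusted p = 9.52e-05, edgeR). Its relatives of carpel and ovule development fell as well: SHP1 by 0.95 ± 0.14, SHP2 by 1.06 ± 0.14 and STK by 0.91 ± 0.15 on the log2 scale. SHP2, for example, stood at 6.18 and 5.86 CPM against 13.0, 11.3 and 13.2 CPM, with no overlap. PI, the B-class petal and stamen gene, stood at 131 and 124 CPM against 180, 175 and 186 CPM (-0.51 ± 0.07), while its partner AP3 stood at 107 and 107 CPM against 115, 131 and 148 CPM and was not called (adjusted p = 0.0818, edgeR). AP3 passed without ap1-1 replicate 1. BPE, a bHLH gene that limits petal size, fell from 38.3, 29.6 and 37.2 CPM to 14.6 and 16.8 CPM (-1.16 ± 0.15). SEP1 (AT5G15800), SEP2 (AT3G02310), SEP3 and SEP4, the cofactors of these MADS proteins, were not called.

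Few carpel and ovule regulators were called: 2 of 21 tested were higher and 2 lower, where 4.87% and 11.4% of all genes tested were, so the lower share was no larger than that of all genes. Leaving out either microRNA library or ap1-1 replicate 2 left 1 higher, and leaving out microRNA replicates 1 and 2 left 1 and 0 lower. INO, an ovule integument gene, fell by 1.36 ± 0.28 and HEC1, a transmitting tract bHLH gene, by 0.99 ± 0.23. INO lost its call without microRNA line replicate 2 and HEC1 when either microRNA library was left out. NGA3, a style regulator, stood at 12.9 and 13.8 CPM against 9.62, 8.89 and 8.97 CPM (0.54 ± 0.11, adjusted p = 0.00236, edgeR) and kept its call in every alternative.

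Regulators that hold the inflorescence state were split. AGL24, a MADS-box promoter of inflorescence identity, stood at 16.8 and 19.6 CPM against 10.1, 10.7 and 11.7 CPM (0.75 ± 0.13, adjusted p = 0.00124, edgeR), and its relative SVP at 12.8 and 12.2 CPM against 7.11, 6.25 and 8.62 CPM (0.77 ± 0.14). Both lay above every ap1-1 library and above wild type, where AGL24 was at 6.39 and 5.70 CPM. SOC1, the flowering integrator that works with AGL24, was lower instead, at 82.1 and 82.5 CPM against 109, 107 and 118 CPM (-0.44 ± 0.09), with wild type at 48.5 and 55.0 CPM. BOP2, a co-factor gene of lateral organ bases, rose from 23.6, 20 and 18.6 CPM to 33.7 and 31.8 CPM (0.65 ± 0.11). In the whole list of 24 flowering genes 5 rose and 2 fell, with a median of 0.0882, where 4.87% and 11.4% of all genes tested did. The lower share was thus no larger than that of all genes. The lower count dropped when either microRNA library was left out, and was 1 without ap1-1 replicate 3.

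Some organ polarity and BELL homeobox genes rose modestly. In the organ polarity list 8 of 16 rose and none fell, but the count was 5 and 4 without microRNA replicates 1 and 2, and 3 in the fit of these groups alone. AS1, the MYB repressor of KNOX genes in young organs, stood at 160 CPM in both microRNA libraries against 113, 112 and 114 CPM (0.50 ± 0.07, adjusted p = 0.000217, edgeR). ATHB8, a class III HD-ZIP gene of vascular tissue, stood at 69.2 and 75.1 CPM against 51.5, 51.7 and 45.5 CPM (0.54 ± 0.08), and ARF4, an abaxial auxin response factor, rose by 0.47 ± 0.08. These genes separated cleanly by group and kept their calls in all alternatives. Of 13 BELL homeobox genes 3 rose and none fell (1 without microRNA line replicate 2, 5 without ap1-1 replicate 1): BLH5 from 3.37, 2.49 and 3.35 CPM to 5.59 and 6.49 CPM (0.97 ± 0.18), PNF by 0.61 ± 0.14 and ATH1 by 0.41 ± 0.09. PNF and ATH1 each lost their call without microRNA line replicate 2.

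Of 19 meristem maintenance genes 4 rose and 2 fell, WUS among the latter, a lower share near the 11.4% of all genes tested. Without microRNA line replicate 1 there were 2 higher and 1 lower, and without replicate 2 there was 1 higher. CRN, a receptor of the CLAVATA pathway, rose by 0.51 ± 0.11 and AIL6, an AP2-type growth factor gene, by 0.57 ± 0.12, while the homeobox gene WOX9 fell by 0.52 ± 0.12. CRN and WOX9 lost their calls without microRNA line replicate 1, and AIL6 without replicate 2. None of 13 organ boundary genes was called by edgeR or DESeq2, 3 had an unadjusted p under 0.05, and leaving out microRNA line replicate 1, ap1-1 replicate 2 or ap1-1 replicate 3 called 1. Of 13 TCP growth regulator genes 3 fell and 1 rose, with a median log2 fold change of 0.118. TCP1 stood at 3.46 and 3.34 CPM against 14.8, 11 and 13.1 CPM (-1.93 ± 0.17, adjusted p = 4.54e-06, edgeR) and BRC1, the repressor of axillary bud growth, at 4.21 and 2.66 CPM against 10.9, 9.64 and 8.26 CPM (-1.49 ± 0.23). The riser was TCP4, a leaf and petal growth gene, at 87.7 and 87.1 CPM against 75, 64.1 and 67.6 CPM (0.34 ± 0.08). No TCP gene was higher when either microRNA library was left out, and 3 were without ap1-1 replicate 3. For TCP1 and BRC1 ap1-1 was the high group, since wild type stood at 5.41 and 4.01 CPM for TCP1 and 2.13 and 1.61 CPM for BRC1. Cell cycle genes leaned upward, with positive values in 27 of 31 and 5 called higher, but 0 were called without microRNA line replicate 2, 1 without replicate 1 and 8 without ap1-1 replicate 3.

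Circadian clock genes changed by the time of day at which they peak. The clock is a loop in which morning factors such as CCA1 and LHY repress evening genes through the evening element, and evening factors repress the morning genes in turn. Of 17 morning and daytime genes 13 fell and 1 rose (11 to 13 lower over the alternatives), with a median log2 fold change of -0.785. Of 13 evening genes 7 rose and none fell (5 to 8 higher), with a median of 0.455. CCA1 stood at 1.70 and 2.42 CPM against 7.11, 8.10 and 7.86 CPM (-1.88 ± 0.17, adjusted p = 6.76e-06, edgeR), and LHY at 1.12 and 1.21 CPM against 5.80, 4.13 and 3.95 CPM (-2.0 ± 0.24). LNK4 and LNK2, coactivators of the daytime loop, stood at 1.76 and 1.94 CPM against 8.5, 10.4 and 10.9 CPM (-2.42 ± 0.16) and at 36.5 and 40.3 CPM against 112, 93.7 and 96.1 CPM (-1.39 ± 0.09). All these morning genes lay below every ap1-1 library in both microRNA libraries, and wild type stood above them as well, for example at 9.51 and 9.55 CPM for CCA1.

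Evening genes moved the other way. JMJD5, a jumonji-domain gene of the evening loop, stood at 252 and 270 CPM against 59.1, 71.3 and 55.0 CPM (2.08 ± 0.15, adjusted p = 1.15e-06, edgeR). COR27, a cold-regulated clock repressor, stood at 98.1 and 100 CPM against 34.3, 47.3 and 35.7 CPM (1.34 ± 0.13). PRR3, ELF3 and the blue-light receptor gene FKF1 rose by 0.52 ± 0.08, 0.46 ± 0.08 and 0.47 ± 0.08. The core evening gene TOC1 stood at 216 and 226 CPM against 187, 201 and 154 CPM without passing the test (0.29 ± 0.12, adjusted p = 0.11, edgeR), and GI and LUX were not called. The exception among morning genes was RVE2, a MYB relative of CCA1, at 95.7 and 94.9 CPM against 14.2, 14.8 and 9.43 CPM (2.89 ± 0.17, adjusted p = 1.52e-07, edgeR). The labels do not give the time of day of the harvest, so a difference in harvest time between the groups and a difference in the clock cannot be told apart.

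Promoters of CCA1 and RVE2 are shown because these genes carry the morning loss and the exception to it. Each is the 300 bases before the annotated start of the gene in TAIR10.1, 5′ to 3′ on the strand of the gene, with the G-box CACGTG in capitals. Both strands were searched for it and for the evening element AAAATATCT. CCA1 (chr2:19245291-19245590, plus strand) and RVE2 (chr5:14753089-14753388, minus strand) hold 1 G-box each and no evening element.
CCA1: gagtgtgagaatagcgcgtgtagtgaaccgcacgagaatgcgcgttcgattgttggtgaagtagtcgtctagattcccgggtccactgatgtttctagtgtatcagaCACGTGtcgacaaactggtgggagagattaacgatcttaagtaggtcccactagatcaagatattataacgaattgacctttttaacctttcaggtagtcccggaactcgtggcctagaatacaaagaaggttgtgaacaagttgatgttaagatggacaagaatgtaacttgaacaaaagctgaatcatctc
RVE2: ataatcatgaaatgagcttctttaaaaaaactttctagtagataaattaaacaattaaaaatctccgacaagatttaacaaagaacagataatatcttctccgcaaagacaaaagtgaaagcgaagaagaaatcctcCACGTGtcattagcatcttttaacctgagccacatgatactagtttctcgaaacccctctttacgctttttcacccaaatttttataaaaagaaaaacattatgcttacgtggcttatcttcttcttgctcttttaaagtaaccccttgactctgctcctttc

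An evening element was found in 7 of 13 promoters of the evening list (53.8%), 3 of 17 of the morning list (17.6%) and 2.79% of all 27444 promoters of the same length. The G-box was found in 7 of 17 morning promoters (41.2%), 2 of 13 evening promoters (15.4%) and 7.09% of all promoters. Among all genes that rose, 2.85% held an evening element, near the share of all promoters, and among those that fell, 3.11%. A match describes the letters in these windows and not a bound site.

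Light-harvesting and carbon fixation genes, often read together as photosynthesis, went in opposite directions. Of 17 antenna protein genes 13 fell and none rose (8 to 15 lower, 8 without microRNA line replicate 2), with a median log2 fold change of -0.743. LHCB2.3 stood at 65.8 and 54.1 CPM against 219, 214 and 245 CPM (-1.92 ± 0.11, adjusted p = 1.52e-07, edgeR), LHCB2.1 at 164 and 140 CPM against 432, 499 and 537 CPM (-1.68 ± 0.10), and the photosystem I antenna gene LHCA1 at 1136 and 992 CPM against 1545, 1798 and 1963 CPM (-0.73 ± 0.11). LHCB1 and LHCB2 copies are near-identical, so reads may be split among them. Of 15 photosystem core and carbon fixation genes 8 rose and none fell, with a median of 0.335. That count was 1 without microRNA line replicate 1 and 5 without replicate 2. RBCS2B, a small subunit of Rubisco, stood at 1467 and 1388 CPM against 665, 598 and 805 CPM (1.05 ± 0.12, adjusted p = 3.69e-05, edgeR) and kept its call in every alternative. The photorespiration enzyme gene GLDP1 (1308 and 1448 CPM against 813, 778 and 730 CPM) and the carbonic anhydrase gene CA1 (1290 and 1245 CPM against 734, 611 and 712 CPM) rose by 0.83 ± 0.09 and 0.89 ± 0.10. The green leaf markers together summed to 11100 to 12600 CPM in the microRNA line and 9720 to 13800 CPM in ap1-1, overlapping ranges.

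**Figure D4:**
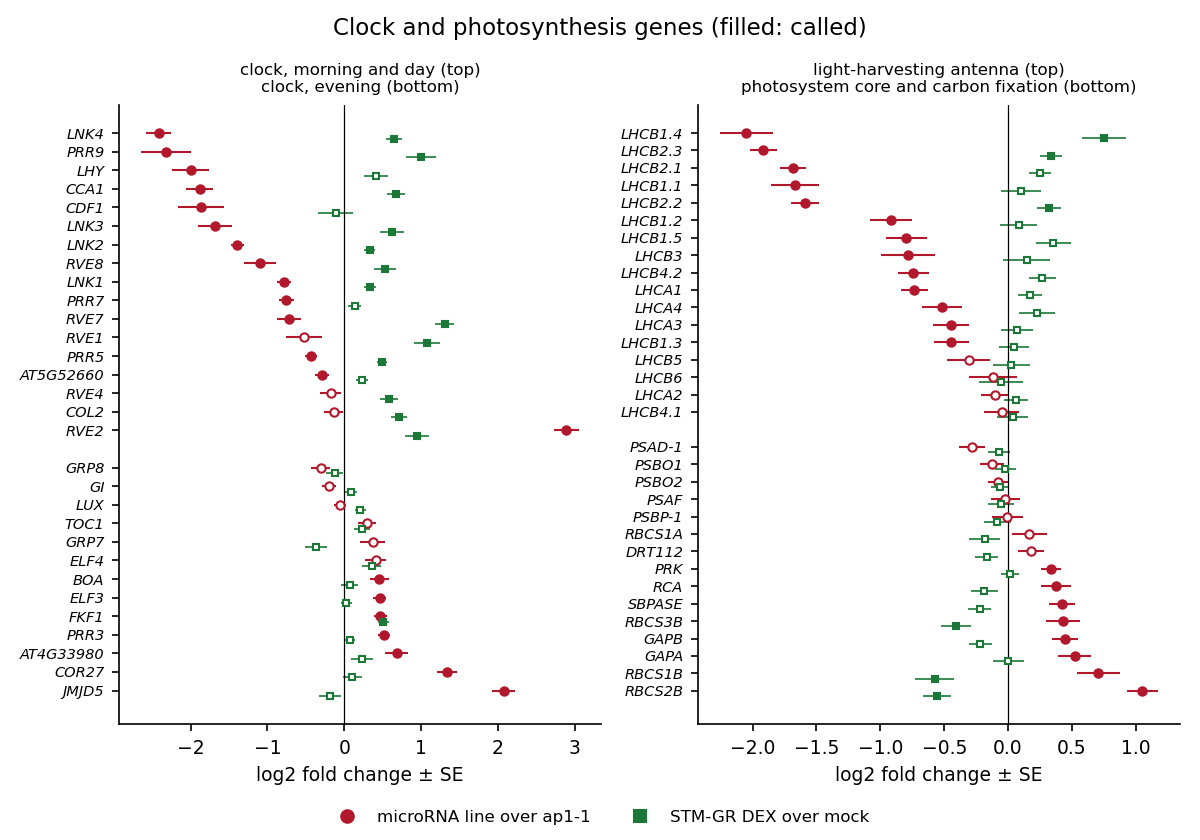
Log2 fold change with its standard error (horizontal axis) for clock genes (left) and photosynthesis genes (right), for the microRNA line over ap1-1 (red circles) and for 35S::STM-GR with DEX over mock (green squares). Filled symbols passed an adjusted p of 0.05. Morning genes and antenna genes lie left of 0 with the microRNA, except RVE2 at 2.89, and the evening genes from BOA down and the carbon fixation genes from PRK down are filled and right of 0.

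Anthocyanin synthesis genes rose together. In the flavonoid list 12 of 21 rose and 1 fell (8 to 12 higher over the alternatives), with a median log2 fold change of 0.698. DFR, the enzyme that commits flavonoids to anthocyanin, stood at 18.8 and 18.4 CPM against 3.37, 2.65 and 3.80 CPM in ap1-1 and 1.31 and 0.62 CPM in wild type (2.50 ± 0.41, adjusted p = 0.000661, edgeR). LDOX, the next enzyme, stood at 29.2 and 29.8 CPM against 6.81, 5.61 and 9.22 CPM (2.03 ± 0.23). UGT79B1, an anthocyanin glycosyltransferase gene, stood at 6.55 and 6.20 CPM against 0.899, 0.741 and 1.42 CPM (2.64 ± 0.31), and TT19, the glutathione transferase that carries anthocyanin to the vacuole, rose by 1.83 ± 0.23. The microRNA line was the highest of the 3 unsprayed genotypes for each of these genes. The member that fell was MYBL2, a repressor of anthocyanin synthesis, at 13.9 and 13.6 CPM against 32.3, 26.4 and 25.8 CPM (-1.04 ± 0.16).

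Of 21 genes of glucosinolate synthesis and breakdown, in a list that holds aliphatic and indole pathway genes and the myrosinases TGG1 and TGG2, 7 rose and none fell (3 rose when either microRNA library was left out, 11 without ap1-1 replicate 3). MAM1, an aliphatic pathway enzyme that lengthens the methionine side chain, stood at 9.16 and 11.6 CPM against 5.02, 4.82 and 6.39 CPM (0.95 ± 0.14, adjusted p = 0.000287, edgeR). FMO GS-OX1, a side-chain S-oxygenase, stood at 7.29 and 7.56 CPM against 1.98, 1.43 and 2.89 CPM (1.82 ± 0.23). For both genes wild type, at 10.3 and 11.2 CPM and at 9.38 and 12.6 CPM, was nearer to the microRNA line than to ap1-1.

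Among genes with a symbol and an average log2 CPM of at least 1, the largest rise was in NRPD1B, the large subunit of RNA polymerase V in RNA-directed DNA methylation, at 118 and 143 CPM against 9.32, 18.4 and 14.4 CPM in ap1-1 (3.23 ± 0.18, adjusted p = 1.52e-07, edgeR). DML1, the DNA demethylase also called ROS1, stood at 137 and 155 CPM against 21.9, 29.4 and 26.0 CPM (2.51 ± 0.10, adjusted p = 8.42e-09, edgeR). In wild type NRPD1B stood at 117 and 109 CPM and DML1 at 165 and 171 CPM, so the ap1-1 libraries were the low ones and the microRNA line was near wild type. SDC, an F-box gene kept silent by DNA methylation, was the mirror image, at 0.426 and 0.484 CPM against 1.53, 1.43 and 1.27 CPM in ap1-1 and 0.328 and 0.413 CPM in wild type (-1.62 ± 0.35), a call lost without microRNA line replicate 1. CYP72A11, a cytochrome P450 gene (15.2 and 17.0 CPM against 4.42, 4.13 and 5.32 CPM, wild type 12.7 and 15.5 CPM), had the pattern of NRPD1B. Of the genes around them, 1 of the 10 tested neighbouring genes was called beside each of NRPD1B and DML1. In the list of 32 methylation genes 5 rose and 2 fell, where 4.87% and 11.4% of all genes tested did, so the lower share was no larger. The higher count was 8 without ap1-1 replicate 2 and 3 without ap1-1 replicate 3. It dropped when either microRNA library was left out, and the lower count dropped without microRNA line replicate 1. Whether the ap1-1 plants and the microRNA line come from a common stock is not given in the labels, and a difference between stocks cannot be told apart from an effect of the microRNA.

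**Figure D5:**
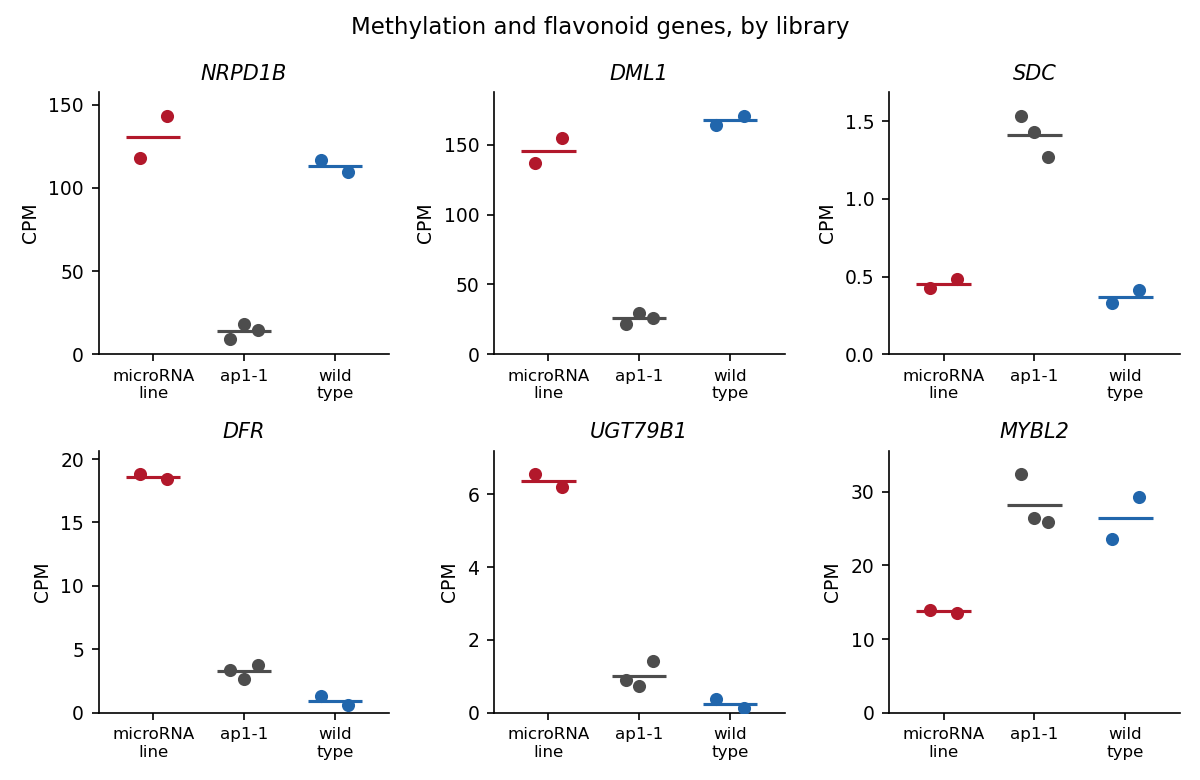
CPM (vertical axis, from 0) of NRPD1B, DML1, SDC, DFR, UGT79B1 and MYBL2 in each library of the microRNA line, ap1-1 and wild type. Points are libraries and bars are group means. For NRPD1B, DML1 and SDC the ap1-1 libraries stand apart from the other genotypes, and for DFR, UGT79B1 and MYBL2 the microRNA libraries do.

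A few cytokinin response and gibberellin genes differed. The type-A cytokinin response regulators, which cytokinin induces, gave 3 higher and none lower of 8. ARR7 stood at 46.6 and 41.6 CPM against 17.2, 24.8 and 27.6 CPM (0.93 ± 0.15, adjusted p = 0.000463, edgeR), and ARR15 rose by 0.82 ± 0.18, a call lost without microRNA line replicate 1. The gibberellin 2-oxidases GA2OX1 and GA2OX2, which inactivate gibberellin, were lower: GA2OX1 stood at 3.03 and 3.05 CPM against 8.87, 8.74 and 9.88 CPM (-1.59 ± 0.18), and GA2OX2 at 10.4 and 9.30 CPM against 17.5, 20.7 and 21.5 CPM (-1.01 ± 0.11). Wild type was higher again, at 15.9 and 12.8 CPM for GA2OX1. Over the 23 gibberellin genes 2 rose and 3 fell, a lower share near the 11.4% of all genes tested, with 0 higher without microRNA line replicate 1 and 1 higher without microRNA line replicate 2, ap1-1 replicate 1 or ap1-1 replicate 3.

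Of 33 tested members of the auxin families IAA and GH3, 7 fell and 1 rose (5 to 9 lower over the alternatives). The riser was lost when either microRNA library or ap1-1 replicate 1 was left out, and 3 rose without ap1-1 replicate 3. GH3.5, which conjugates auxin and salicylate to amino acids, stood at 45.4 and 48.3 CPM against 116, 125 and 76.0 CPM (-1.17 ± 0.20, adjusted p = 0.000747, edgeR), and IAA19, an auxin response repressor, fell by 0.83 ± 0.13. The brassinosteroid P450 gene ROT3 stood at 7.19 and 7.22 CPM against 17.9, 14.0 and 14.9 CPM (-1.12 ± 0.14). Of 23 jasmonate genes 6 fell and none rose, but 3 and 2 without microRNA replicates 1 and 2. JAZ6, a jasmonate repressor, stood at 60.6 and 57.3 CPM against 134, 90.7 and 120 CPM (-0.96 ± 0.15), and LOX4, a lipoxygenase gene, fell by 0.82 ± 0.17.

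ASN1 and some other sugar-starvation and touch genes were lower, while most members of these lists were not called. ASN1, an asparagine synthetase gene that darkness and low sugar induce, stood at 9.05 and 8.33 CPM against 132, 77.9 and 120 CPM in ap1-1 and 236 and 203 CPM in wild type (-3.66 ± 0.20, adjusted p = 1.52e-07, edgeR). DIN9, a phosphomannose isomerase gene of the same response, stood at 6.12 and 4.65 CPM against 12.1, 14.6 and 11 CPM (-1.23 ± 0.21). The list gave 5 lower and 1 higher of 16, with 2 lower without microRNA line replicate 1, 3 without microRNA line replicate 2 or ap1-1 replicate 1, and 9 without ap1-1 replicate 3. The gene higher in that list was BT2, a BTB and TAZ domain gene, at 102 and 103 CPM against 22.1, 56.2 and 9.02 CPM (1.83 ± 0.49), and its call was lost when either microRNA library or ap1-1 replicate 1 was left out. TCH4, a xyloglucan-modifying enzyme gene that touch induces, stood at 7.24 and 5.62 CPM against 29.5, 57.9 and 24.5 CPM (-2.53 ± 0.34), with ap1-1 replicate 2 well above the others of its group. Of 15 touch, cold and handling genes 4 fell and none rose, with 2 lower when either microRNA library or ap1-1 replicate 1 was left out. The part of plant handling in these values was not tested.

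Cell wall genes of the xyloglucan family fell in 7 of 21 and rose in none (4 without microRNA line replicate 2). XTH24 stood at 29.7 and 25.4 CPM against 55.2, 58.0 and 86.3 CPM (-1.27 ± 0.18, adjusted p = 0.000178, edgeR) and XTH11 at 2.66 and 2.08 CPM against 8.01, 7.94 and 10.2 CPM (-1.88 ± 0.20). Among abundant transcripts, BGLU18, a beta-glucosidase of endoplasmic reticulum bodies, stood at 642 CPM in both microRNA libraries against 1292, 957 and 1539 CPM (-0.98 ± 0.20), and MAH1, a wax alkane hydroxylase, fell by 0.80 ± 0.16.

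Values after activation of STM-GR were set beside those of the microRNA line over ap1-1, since these experiments share no library. DEX raised 1207 genes (5.56%) and lowered 1553 (7.15%) over mock. Genes lower with the microRNA and higher with DEX numbered 231, which is 9.33% of all genes lower with the microRNA and 19.1% of those that DEX raised. Genes higher with the microRNA and lower with DEX numbered 172, which is 16.3% and 11.1% of their lists. Genes that moved in the same direction in both experiments numbered 84 higher (7.95% and 6.96%) and 145 lower (5.86% and 9.34%). Over all genes tested, 11.4% were lower and 4.87% higher with the microRNA, which is what the shares of the DEX lists are read against. DEX raised 5.56% and lowered 7.15% of all genes tested, for the shares of the microRNA lists. Leaving out DEX replicate 2 or 3 or mock replicate 1 or 3 moved the DEX counts to 657 to 760 higher and 809 to 998 lower.

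Of the 13 morning clock genes lower with the microRNA, 9 were raised by DEX, among them CCA1 (0.68 ± 0.12) and LNK4 (0.65 ± 0.10). DEX raised 13 of all 17 morning genes tested, so the share was no larger among those lower with the microRNA. Of the 12 flavonoid genes higher with the microRNA, 5 were lowered by DEX, and DEX lowered 9 of all 21 tested, a like share. Among the 5 were DFR (-2.28 ± 0.62) and LDOX (-1.55 ± 0.28), while MYBL2 was raised (0.76 ± 0.13). DFR was low, at a mean of 0.339 CPM with DEX and 1.74 CPM with mock, where the standard deviation was 1.75 CPM. Its mean was 0.966 CPM in unsprayed wild type and 0.837 CPM in wild type with DEX. ARR7 fell by 0.75 ± 0.14 with DEX and ATHB8 by 0.56 ± 0.07, while XTH24 rose by 2.0 ± 0.15. RVE2 rose in both experiments (0.95 ± 0.15 with DEX), from a mean of 15.8 CPM with mock to 30.4 CPM with DEX. Its mean was also higher in wild type with DEX, at 24.96 CPM, than in unsprayed wild type, at 15.8 CPM. The part that the spray without STM-GR had in the rise of RVE2 was not tested. BOP2 (2.35 ± 0.09), BLH5 (1.86 ± 0.16), AS1 (0.64 ± 0.07) and AP1 (0.66 ± 0.06) rose in both experiments as well. GA2OX1 (-1.38 ± 0.14) and BSMT1 (-1.80 ± 0.18) fell in both. Of 12 pollen genes lower with the microRNA, 1 (MYB101, 0.51 ± 0.12) was called with DEX, and NRPD1B (0.02 ± 0.15) and DML1 (0.01 ± 0.09) were not. DEX was sprayed for 5 h on plants with STM-GR in most tissues, whereas the microRNA is a transgene under the AP1 promoter in unsprayed plants.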

How the data were processed

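RNA-seq reads were aligned with TopHat2 2.0.6 to TAIR10 and counted per gene with HTSeq 0.62, per the submitters' processing notes, and the authors deposited raw counts for each of 15 libraries; the strand setting is not given in the sources used here. Rows that name no gene (5.493 to 6.634% of reads) were left out. From the deposited counts, edgeR 4.0.16 (R 4.3.3) fitted all 15 libraries in 6 groups (TMM, filterByExpr with a minimum count of 10, quasi-likelihood test), which tested 21716 of 28775 genes, with Benjamini-Hochberg adjustment and a threshold of 0.05. CPM are TMM-scaled, SE is the absolute log2 fold change over the square root of F, and the common biological coefficient of variation was 9.85%. The fit was tested on simulated counts with the same spread per gene in all groups. That test does not cover a group as variable as ap1-1. Alternatives were DESeq2 1.42.0, RLE size factors, no filter, limma 3.58.1 voom with a weight per group, a replicate block, only the groups compared, and leaving out each library. Counts of 0 limit folds at 3 reads over the group.

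Named genes were 9 fixed genes, up to 10 per direction by fold, up to 8 by CPM difference and up to 6 per list of 48 lists by adjusted p. PPME1, ACOS5, AMS, MYB80, AP3, TOC1, ARF6, ARF8 and other genes given as not called, and a few called list members, were chosen after their values were seen. The members and lists were chosen with earlier results of these data known. Symbols were matched for 28009 genes. Sequences are from the TAIR10.1 genome and annotation.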

Additional observations from a re-analysis of the deposited data

How the results depend on the processing

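Counts of genes higher and lower with the microRNA stayed within 1.5 times of 1057 and 2475 with DESeq2 (1044 and 2520), RLE size factors (1069 and 2478) and no filter (981 and 2397). They moved further with group weights in limma voom for genes that rose (647, with 1726 lower) and in the fit of only the groups compared (344 and 1603). Leaving out 1 library gave 318 to 1296 higher and 1332 to 2756 lower. The replicate block, with replicate number as a term, gave 887 higher and 2302 lower. The labels do not say whether replicate numbers pair the samples, so the block is not read as a paired test. Deviations of same-numbered libraries correlated at -0.128 and 0.0274. With 2 microRNA libraries the deviations of each mirror those of the other, so these values cannot decide the question. For the DEX comparison (1207 higher, 1553 lower), limma voom called 2486 and 2852, only the groups compared 2262 and 2792, the replicate block 1165 and 1519, and leaving out 1 library 657 to 1110 higher and 809 to 1403 lower. The cause of these moves was not tested. Fits without a library hold fewer samples, and those without an ap1-1 library gave 1083 to 1296 higher and 2433 to 2756 lower. Of 300 called genes followed, 163 lost the call in at least 1 of the 11 alternatives and none reversed, and of 96 list counts 59 moved by over 1.5 times in at least 1. At this depth, genes under about 1 CPM rest on few reads.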
